A study of Mus musculus with 8 samples.

Results

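The TCP-1 ring complex (TRiC, also called CCT) was examined through the mRNAs of its 8 subunit genes, Tcp1, Cct2, Cct3, Cct4, Cct5, Cct6a, Cct7 and Cct8. The members were the genes of the deposited table whose symbol equals one of these names, and all 8 were found among 27179 genes. TRiC is a chaperonin of the eukaryotic cytosol, a pair of stacked rings in which each ring holds 1 copy of every subunit. It takes up unfolded proteins and uses ATP to close a lid over them. Actin and tubulin are its best known substrates, and several proteins with propeller-shaped WD40 repeats also pass through it. T cells that are activated through the antigen receptor grow, reorganize their cytoskeleton and start to divide, so the supply of this folding machine is of interest in them.

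RNA sequencing covered 8 libraries of splenic CD4+ T cells from C.Cg-Foxp3tm2Tch/J mice aged 8 weeks, with 2 libraries in each of 4 groups. All animals, controls included, carry the Foxp3 reporter allele of this strain. Control offspring came from parents on unspiked water. The parents of Cd offspring drank 10 ppm CdCl2 before and during mating, and the mothers stayed on it until the pups were born. Exposure was thus before birth, and the metal was not added to the T cells. From each kind of offspring, cells were taken unstimulated (0 h) or after 16 h with anti-CD3/CD28 beads, which engage the T cell receptor and a costimulatory receptor. No library of cells cultured without beads was analysed here, so stimulation and time in culture cannot be told apart. The sample labels name CD4+ T cells, obtained by negative selection of spleen cells and, per the methods of the study, purified further by FACS before lysis or culture, a step that would remove most other cell types, while the text of the study also names a CD25- conventional subset. In each group the libraries are numbered 6 and 7, and neither number is tied in the labels to an animal or litter, so p-values measure the spread between these samples, which may in part be technical.

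The values are RPKM, reads of a gene scaled by the length of the counted transcript and by the depth of the library. This allows a rough comparison of levels between genes. Other differences in how well reads of each gene are counted were not tested. Between 15542732 and 25486791 reads were counted on genes in a library, and each TRiC value rests on 2150 to 14782 reads. The correlation of log2(RPKM + 0.1) between the libraries of a group was 0.983 to 0.990 across genes, which are not independent replicates. The 5 T cell markers (Cd3e, Cd3d, Cd3g, Cd4 and Lck) lay between 154.7 and 479.1 RPKM in every library. Their sum was 1767 to 1903 RPKM in unstimulated and 1118 to 1161 RPKM in stimulated libraries. The B cell marker Ms4a1 was listed at 0 throughout, and Cd79a was at 2.87 to 3.38 RPKM in unstimulated and 4.15 to 4.73 RPKM in stimulated libraries. Of the 4 myeloid markers 3 stayed below 1 RPKM, and the sum of all 4 was 1.87 to 2.03 RPKM in unstimulated and 0.380 to 0.582 RPKM in stimulated libraries. The fourth, Itgam, was called lower in both kinds of offspring, with a log2 fold change of -2.27 (SE 0.25) in control offspring. The sum of the CD8 and NK cell markers was 12.9 to 15.1 RPKM in unstimulated and 10.5 to 12.1 RPKM in stimulated libraries. Its members differed: Cd8b1 lay at 9.40 to 11.69 RPKM throughout, while the NK cell marker Klrb1c fell from 4.35 and 4.29 RPKM to 0.147 and 0.293 RPKM in control offspring (log2 fold change -3.83, SE 0.30) and was called lower in Cd offspring too. The other CD8 marker, Cd8a, was only at 0.058 to 0.160 RPKM, and the other NK cell marker, Ncr1, did not exceed 0.031 RPKM in any library. In unstimulated and then stimulated libraries, the sum of the regulatory T cell markers was 6.32 to 7.96 and 8.52 to 11.0 RPKM, and that of the erythroid markers 0.365 to 1.72 and 1.04 to 1.38 RPKM. The erythroid sum was nearly all Alas2: the globin gene Hba-a1 was listed at 0 throughout, and Hbb-bs was above 0 only in unstimulated control library 7 (0.096 RPKM). The part of these shifts in the results was not tested. In such bulk samples, fewer cells of a type and less RNA per cell cannot be told apart.

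The 8 genes lie on 8 chromosomes. Positions are of GRCm38.p6, the RefSeq form of the mm10 build used by the authors. Tcp1, which encodes the alpha subunit, spans chr17:12916329-12925067. Cct2 (beta) spans chr10:117050997-117063852, Cct3 (gamma) chr3:88297135-88321766, and Cct4 (delta) chr11:22990593-23003336. Cct5 (epsilon) spans chr15:31590800-31601846, Cct6a (zeta) chr5:129787356-129846443, Cct7 (eta) chr6:85451505-85468477, and Cct8 (theta) chr16:87483325-87495869. In the annotation Cct2, Cct3, Cct4 and Cct5 overlap no other gene. Tcp1 overlaps Mrpl18 (37.2 to 52.3 RPKM) and the low Acat3, Cct6a overlaps Psph (9.03 to 20.3 RPKM), Cct7 overlaps Pradc1 (6.11 to 7.81 RPKM) and Cct8 overlaps Usp16 (27.8 to 34.2 RPKM). Small nucleolar RNA genes also lie there: Snora20 (1.69 to 8.44 RPKM) and LOC115488839 at Tcp1, and Snora15 (0.529 to 6.72 RPKM) and Gm23245 at Cct6a. LOC115488839 and Gm23245 had no value under these symbols. Whether strand was used in counting is not stated, so reads in the shared stretches could have been given to either gene or left uncounted.

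The members moved together on stimulation, and the sequence before their start sites is shown for 4 of them. Cct3 was the only subunit to pass the test between Cd and control offspring at rest, Cct8 was the next in size, Cct6a had the largest response among Cd offspring, and Cct5 was the highest subunit. RefSeq promoter windows of 300 bases were held for 7 of the 8 members, with 9 windows in all. The 250 bases before the start are printed 5′ to 3′ on the gene's strand, with matches to the words searched in capitals.
Cct3, chr3:88296885-88297134 (plus strand): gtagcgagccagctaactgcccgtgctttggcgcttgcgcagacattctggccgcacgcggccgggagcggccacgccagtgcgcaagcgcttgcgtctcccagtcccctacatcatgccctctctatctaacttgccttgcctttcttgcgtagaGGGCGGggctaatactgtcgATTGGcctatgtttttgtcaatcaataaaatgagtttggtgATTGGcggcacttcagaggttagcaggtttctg
Cct8, chr16:87495870-87496119 (minus strand): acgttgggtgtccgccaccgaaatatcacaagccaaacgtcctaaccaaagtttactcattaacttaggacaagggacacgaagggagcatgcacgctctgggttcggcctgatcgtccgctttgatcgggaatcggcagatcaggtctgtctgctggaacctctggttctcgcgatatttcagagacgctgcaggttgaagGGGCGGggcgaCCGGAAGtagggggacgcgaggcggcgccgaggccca
Cct6a, chr5:129787106-129787355 (plus strand): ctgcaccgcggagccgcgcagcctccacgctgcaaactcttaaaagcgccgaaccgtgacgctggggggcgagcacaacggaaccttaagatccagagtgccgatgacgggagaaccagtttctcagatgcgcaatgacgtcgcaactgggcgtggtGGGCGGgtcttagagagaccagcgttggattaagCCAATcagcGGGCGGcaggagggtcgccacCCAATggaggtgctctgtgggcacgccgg
Cct5, chr15:31601847-31602096 (minus strand): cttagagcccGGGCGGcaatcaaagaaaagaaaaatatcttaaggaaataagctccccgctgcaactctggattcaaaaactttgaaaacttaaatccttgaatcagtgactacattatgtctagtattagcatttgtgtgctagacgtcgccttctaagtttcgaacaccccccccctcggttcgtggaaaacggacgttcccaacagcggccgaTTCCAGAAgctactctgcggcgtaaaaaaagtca

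In capitals, GGGCGG is the GC box, CCAAT (read ATTGG on the other strand) the CCAAT box, CCGGAAG an ETS family word, and TTCNNGAA a core of the heat shock element. All were searched on both strands, and none of the 31 matches in the 9 windows overlapped another. The GC box was in at least 1 window of 7 of the 7 members and in 35.66% of 32851 promoters of the same length. The member windows held 47.33% to 67.67% G or C, against a median of 52.67% over these promoters. Only the Cct5 window printed in part above (47.33%) was below that median. The part of base composition in the GC box matches was not tested. Members are counted by gene, and Cct2 and Cct5 had 2 windows each, while the shares are per single promoter. The Cct5 window not printed held no match to any word. The CCAAT box was in 4 members (Cct3, Cct6a, Cct7 and Tcp1) and in 37.41% of promoters. The ETS word was in 3 members (Cct2, Cct8 and Tcp1) and in 8.858% of promoters. TTCNNGAA was in Cct5 and Cct6a and in 8.52% of promoters, the Cct6a match lying after the start and outside the stretch printed. The other arrangement of the heat shock core, GAANNTTC, was in 1 window of Cct2 and in 7.86% of promoters. The E-box CACGTG, the CRE word TGACGTCA and the TATA box TATAAA were in none of the 9 windows, against 7.15%, 1.79% and 13.62% of promoters. These are matches of letters in a fixed window, and binding was not measured.

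Unstimulated cells held the 8 mRNAs at unequal levels. Cct5, the epsilon subunit, was the highest in all 8 libraries, followed in each by Cct4, Cct2 and Cct8. In unstimulated control offspring the means were 146.6 ± 6.18 RPKM for Cct5, 129.3 ± 2.47 RPKM for Cct4, 120.6 ± 5.49 RPKM for Cct2 and 96.2 ± 2.54 RPKM for Cct8 (SD, n = 2 each). The lower members of this group were Tcp1 at 74.5 ± 2.33 RPKM, Cct7 at 69.1 ± 0.982 RPKM, Cct3 at 68.7 ± 1.29 RPKM and Cct6a at 65.1 ± 1.52 RPKM (SD, n = 2 each). In that order only the neighbours Cct7 and Cct3 overlapped between libraries. After stimulation of control cells the order was Cct5, Cct4, Cct2, Cct8, Cct3, Tcp1, Cct6a and Cct7, where the neighbours Cct4 and Cct2 overlapped and so did Cct3 and Tcp1. Cct6a was the lowest subunit in all 4 unstimulated libraries and Cct7 in all 4 stimulated ones.

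**Figure D1:**
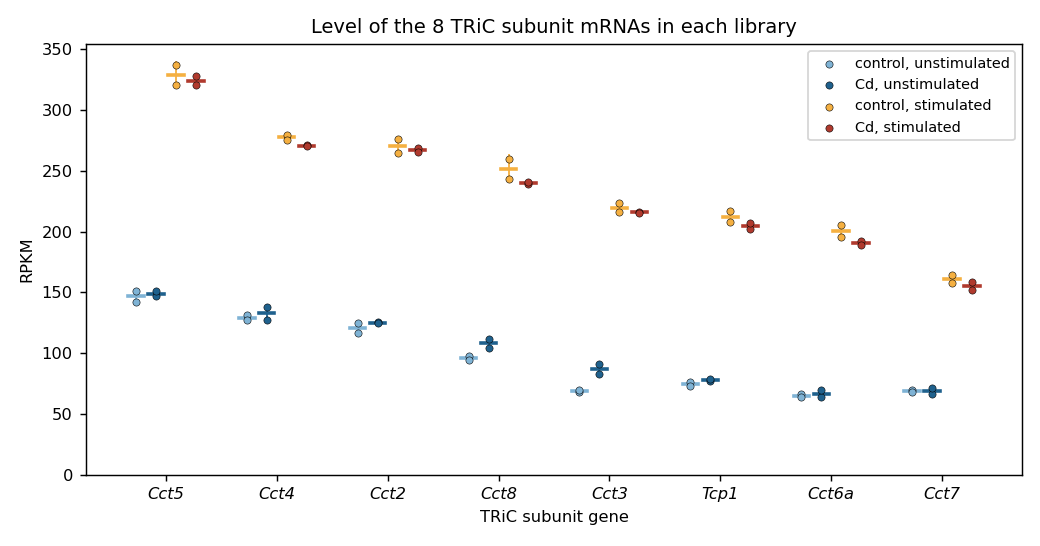
Level in RPKM (vertical axis) of each TRiC subunit mRNA (horizontal axis) in every library, coloured by group; points are libraries, bars the mean and lines the SD of 2 libraries. For each of the 8 genes the 4 stimulated libraries lie above the 4 unstimulated ones. Of all genes tested, 46% had both stimulated libraries above both unstimulated ones in control offspring, and 44.7% in Cd offspring. The share with all 4 above all 4 was not computed. Cct3 is the gene with the clearest gap between unstimulated Cd (82.9 and 91.0 RPKM) and control offspring (67.8 and 69.6 RPKM).

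The comparison of stimulated with unstimulated cells of control offspring asks how T cell activation alters the supply of TRiC mRNA. All 8 subunits rose, between 2.14-fold and 3.19-fold. Cct3, the gamma subunit, was at 67.8 and 69.6 RPKM in the unstimulated libraries and at 223.2 and 216.2 RPKM in the stimulated ones. Cct6a, the zeta subunit, was at 66.2 and 64.0 RPKM before and at 205.3 and 195.7 RPKM after. Tcp1, the alpha subunit for which the complex is named, went from 76.2 and 72.9 RPKM to 216.8 and 207.5 RPKM. In these genes the stimulated libraries were far above the unstimulated ones, and the libraries of a group lay close to each other. The log2 fold change was 1.68 (SE 0.055) for Cct3, 1.62 (SE 0.055) for Cct6a and 1.51 (SE 0.047) for Tcp1.

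The theta subunit Cct8 was intermediate, with 98.0 and 94.4 RPKM before and 260.0 and 243.5 RPKM after stimulation, a log2 fold change of 1.39 (SE 0.056). The eta subunit Cct7 went from 69.8 and 68.4 RPKM to 164.0 and 157.5 RPKM, a log2 fold change of 1.22 (SE 0.052). The members that were highest at rest had the smallest fold changes. Cct5 went from 150.9 and 142.2 RPKM to 336.9 and 320.3 RPKM, with a log2 fold change of 1.16 (SE 0.052). Cct2, the beta subunit, went from 124.5 and 116.8 RPKM to 275.8 and 264.4 RPKM, with a log2 fold change of 1.16 (SE 0.050). Cct4, the delta subunit, went from 131.0 and 127.5 RPKM to 279.5 and 275.3 RPKM, with a log2 fold change of 1.10 (SE 0.052). No stimulated library overlapped an unstimulated one for any subunit, and these differences exceed the spread between libraries many times over.

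A gene was called for stimulation when its change passed 2-fold with an adjusted p below 0.01, by limma on log2(RPKM + 0.1) with Benjamini-Hochberg adjustment over 12605 genes. The 8 of 8 members called higher stand against 11.5% of all genes tested called higher. The adjusted p of the members was 4.491e-07 to 1.896e-06 in limma. Their median log2 fold change was 1.30, against 0.07 over all genes tested. For 8 of 8 members the stimulated libraries lay above the unstimulated ones without overlap, which was so for 46% of all genes. The members were far from the extreme of the response: their ranks by log2 fold change, counted from the highest, were 578 for Cct3 to 1350 for Cct4. With 2 libraries against 2, an exact permutation test cannot go below a two-sided p of 0.333. The call thus rests on the spread shared by all 8 libraries, drawn by empirical Bayes toward that of the other genes tested.

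In Cd offspring the same 8 of 8 subunits were called higher, against 11.4% of genes tested called higher. The stimulated levels were close to those of control offspring, 269.0 and 265.4 RPKM for Cct2 and 320.4 and 327.9 RPKM for Cct5, for example. The log2 fold change was 1.51 (SE 0.055) for Cct6a, 1.39 (SE 0.047) for Tcp1, 1.31 (SE 0.055) for Cct3, 1.17 (SE 0.052) for Cct7, 1.15 (SE 0.056) for Cct8, 1.12 (SE 0.052) for Cct5, 1.10 (SE 0.050) for Cct2 and 1.03 (SE 0.052) for Cct4. Their median was 1.16, against 0.05 over all genes tested, and the adjusted p was at most 2.674e-06 in limma. Cct4 is the member nearest to the 2-fold limit and fell under it, with a log2 fold change of 0.97, when the unstimulated Cd library 6 was left out and, likewise, with median-of-ratios scaling. It was then the 1 subunit no longer called, and its adjusted p stayed at or below 0.000148 in limma under every alternative run.

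**Figure D2:**
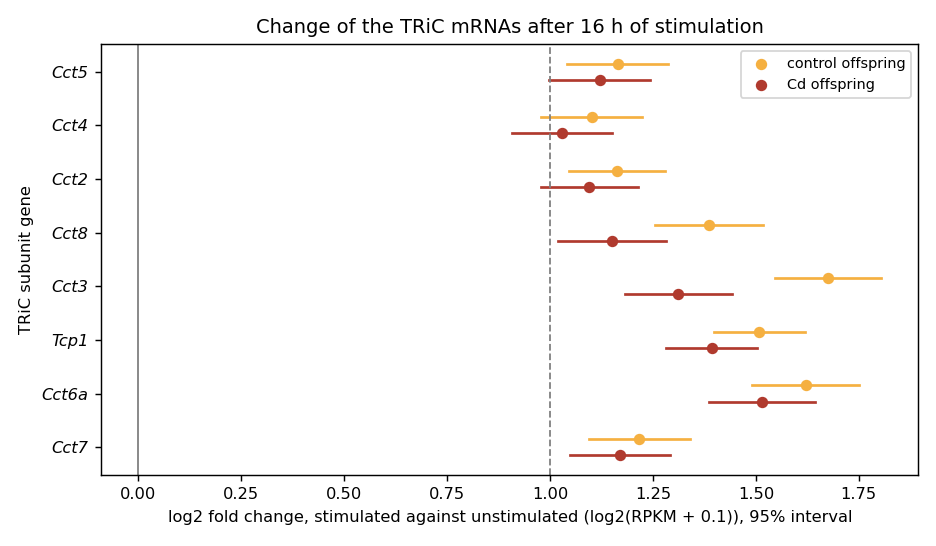
Log2 fold change of stimulated against unstimulated cells (horizontal axis, log2(RPKM + 0.1) scale) for each TRiC subunit (vertical axis), in control and in Cd offspring; points are limma estimates, lines their 95% intervals, and the dashed line marks 2-fold. All 16 estimates lie above the 2-fold line, from 1.03 (Cct4 in Cd offspring) to 1.68 (Cct3 in control offspring).

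Summed as 1 pool, the 8 mRNAs made up 0.157% to 0.173% of the counted reads in the 4 unstimulated libraries and 0.387% to 0.409% in the 4 stimulated ones. The summed level was 755.9 to 835.5 RPKM and 1862 to 1961 RPKM. The subunits were also closer to each other in level after stimulation. The coefficient of variation over the 8 genes was 30.1% to 34.0% in unstimulated and 21.9% to 22.9% in stimulated libraries. The highest subunit was 2.17 to 2.30 times the lowest at rest and 2.03 to 2.11 times after stimulation. Neither measure overlapped between the stimulated and the unstimulated libraries.

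The make-up of the pool shifted accordingly. In control offspring the share of Cct5 went from 19.0% ± 0.303 to 17.1% ± 0.097 of the summed level, and that of Cct4 from 16.8% ± 0.120 to 14.4% ± 0.276 (SD, n = 2). The share of Cct6a went from 8.45% ± 0.024 to 10.4% ± 0.043, and that of Cct3 from 8.93% ± 0.402 to 11.4% ± 0.083 (SD, n = 2). Thus in control offspring the largest shares (Cct5, Cct4 and Cct2) became smaller, and the low ones of Tcp1, Cct3 and Cct6a larger. Cct7 was the exception among the low members, at 8.97% ± 0.108 before and 8.37% ± 0.009 after (SD, n = 2). Cct8, in the middle, went from 12.49% ± 0.002 to 13.1% ± 0.217 in control offspring (SD, n = 2). In Cd offspring its share went the other way, from 13.25% ± 0.213 to 12.84% ± 0.0004 (SD, n = 2). Shares of a fixed sum are not independent, and an mRNA share is not a protein share.

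**Figure D3:**
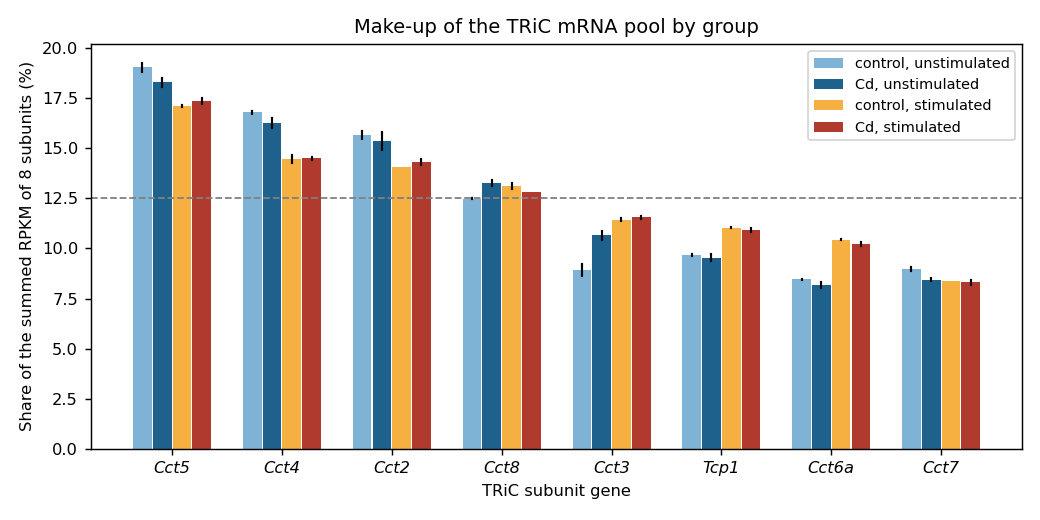
Share of each TRiC subunit (horizontal axis) in the summed RPKM of the 8 subunits (vertical axis, percent), by group; bars are means of 2 libraries, lines run from the lower to the higher library, and the dashed line marks equal shares. The bars of Cct5, Cct4 and Cct2 are shorter after stimulation and those of Tcp1 and Cct6a taller, while Cct3 in unstimulated Cd offspring (10.7%) stands between unstimulated control offspring (8.93%) and the stimulated groups.

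The comparison of Cd with control offspring in unstimulated cells asks whether prenatal exposure left a mark on TRiC expression at rest. Cct3 was the 1 member of 8 called, at an adjusted p of 0.04562 in limma against the limit of 0.05. Of all genes tested, 0.135% were called higher in Cd offspring (17 genes) and 0.896% in either direction. Cct3 was at 67.8 and 69.6 RPKM in control and at 82.9 and 91.0 RPKM in Cd offspring, 1.26-fold higher. Each Cd library was above either control library. The log2 fold change was 0.34 (SE 0.055, 95% interval 0.21 to 0.47), and Cct3 ranked 941 of 12605 genes by this value from the highest. The call depended on the settings. It was made in 6 of 18 alternatives, among them 1 of the 8 that leave out a library (that without the unstimulated Cd library 6), while the log2 fold change stayed between 0.27 and 0.41. Without the unstimulated Cd library 7 the log2 fold change was 0.27, and without the unstimulated control library 6 the adjusted p was 0.2479 in limma.

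Cct8 had the next value, 98.0 and 94.4 RPKM in control and 104.0 and 112.0 RPKM in Cd offspring, a log2 fold change of 0.17 (SE 0.056, 95% interval 0.03 to 0.30) that did not pass (limma adjusted p = 0.2765). The libraries of Cct8 did not overlap either. Tcp1 was at 76.2 and 72.9 RPKM in control and at 77.1 and 78.4 RPKM in Cd offspring, also without overlap but with a log2 fold change of 0.06 (SE 0.047). These 3 of 8 members without overlap, higher in Cd offspring, stand against 22.3% of all genes. For the other 5 the libraries of both groups overlapped, with log2 fold changes of -0.01 (Cct7) to 0.05 (Cct2). The 95% intervals of the 7 members not called ran from -0.13 to 0.30.

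In stimulated cells none of the 8 members was called between Cd and control offspring, and none had an unadjusted p under 0.05. Of all 12605 genes, 0 were called by limma (0%), 414 had an unadjusted p under 0.05, and voom on recovered reads also called 0. Cct3 was at 223.2 and 216.2 RPKM in control and at 216.4 and 215.0 RPKM in Cd offspring, and these libraries overlapped. Cct6a had the most negative log2 fold change, -0.07 (SE 0.055), with 205.3 and 195.7 RPKM against 192.1 and 189.2 RPKM. All 8 estimates were below 0, from -0.07 to -0.02, though those of Cct2 and Cct5 were above 0 in 1 of 18 alternatives each, and the 95% intervals together spanned -0.20 to 0.10. For 4 members (Tcp1, Cct4, Cct6a and Cct8) both Cd libraries lay below both control libraries, which was so for 20.6% of all genes.

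**Figure D4:**
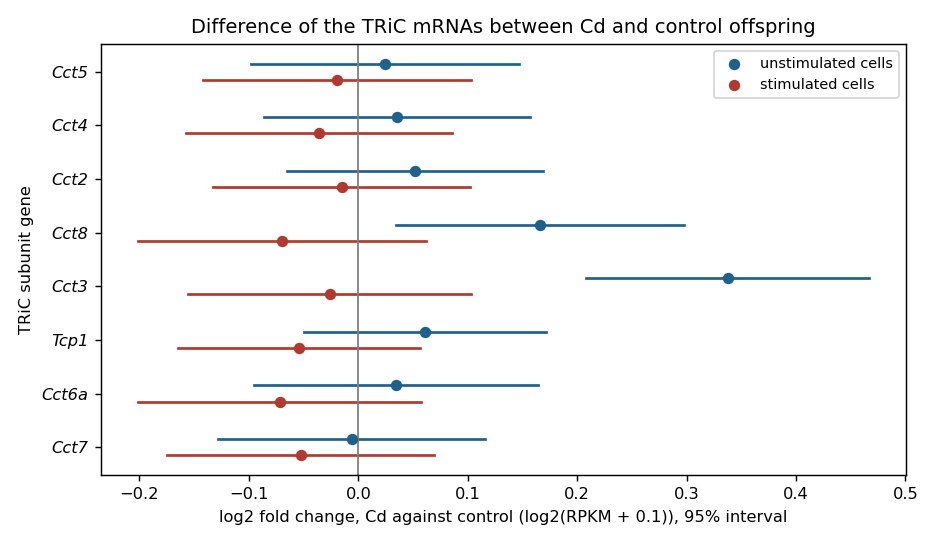
Log2 fold change of Cd against control offspring (horizontal axis, log2(RPKM + 0.1) scale) for each TRiC subunit (vertical axis), in unstimulated and in stimulated cells; points are limma estimates and lines their 95% intervals before adjustment over genes. The intervals of Cct3 (0.21 to 0.47) and Cct8 (0.03 to 0.30) in unstimulated cells lie above 0 and the other 14 include it.

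Whether the response to stimulation differed between Cd and control offspring was tested as the difference of both responses, which shares its libraries with the comparisons above. None of the 8 members passed at an adjusted p under 0.05, against 0.357% of all genes tested called in either direction. Cct3 had the most negative difference, -0.36 on the log2 scale (SE 0.078, limma adjusted p = 0.166). For Cct8 the difference was -0.24 (SE 0.080, limma adjusted p = 0.3717), and for the other 6 members it was -0.12 to -0.04. The smaller Cct3 response in Cd offspring, 2.48-fold against 3.19-fold, thus was not shown to differ, and at 16 h the Cct3 levels of both kinds of offspring overlapped.

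Genes that work with TRiC were counted by list. Prefoldin, a complex of 6 subunits, captures nascent actin and tubulin and hands them to TRiC. Of its 6 genes, 1 was called higher after stimulation in control offspring, against 11.5% of all genes tested. This was Pfdn4, with a log2 fold change of 1.21 (SE 0.090). Pfdn4 was at 11.0 and 9.56 RPKM before and at 24.2 and 23.6 RPKM after, without overlap. In Cd offspring Pfdn4 (1.33) and Pfdn2 (1.03) were called higher, against 11.4% of all genes tested. Pfdn2 was just above 2-fold and was called in 16 of 19 alternatives. Pfdn5, the highest prefoldin mRNA, had a log2 fold change of -0.39 (SE 0.054) in control offspring. The median over the list was 0.78, against 1.30 for the TRiC subunits and 0.07 for all genes.

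The phosducin-like proteins Pdcl and Pdcl3 and the related Txndc9 bind TRiC and modulate its folding cycle. None of the 3 reached 2-fold in control offspring: their log2 fold changes were 0.52 (SE 0.095) for Pdcl, 0.76 (SE 0.051) for Pdcl3 and 0.65 (SE 0.070) for Txndc9. The tubulin cofactors, which receive tubulin from TRiC and assemble the dimer, numbered 6 with none called in either kind of offspring. Their largest log2 fold changes were 0.66 (SE 0.0997) for Arl2, 0.63 (SE 0.084) for Tbcb and 0.60 (SE 0.050) for Tbcd. None of these partners was called between Cd and control offspring in either state.

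The substrates were mixed in direction. Of 14 actin and tubulin genes, 3 were called higher in control offspring (Tuba1b, Tuba1c and Tubb3) and 1 lower (Tuba1a), and the same counts held in Cd offspring. Over all genes tested, 11.5% were called higher and 7.17% lower in control offspring, and 11.4% and 7.24% in Cd offspring. Tuba1c, an alpha-tubulin, had a log2 fold change of 1.16 (SE 0.13). Tubb3, a beta-tubulin best known from neurons, had one of 1.68 (SE 0.25) at a level of only 1.36 ± 0.184 RPKM after stimulation (SD, n = 2). Tuba1a went the other way, from 21.32 and 19.97 RPKM to 6.63 and 9.24 RPKM, with a log2 fold change of -1.39 (SE 0.21). The near-identical tubulin copies can share reads, so their split is uncertain. Among the most abundant, beta-tubulin Tubb5 had a log2 fold change of 0.84 (SE 0.054) and beta-actin Actb, at 3457 ± 89.4 RPKM after stimulation (SD, n = 2), one of 0.00 (SE 0.095). Of 11 other clients, 1 was called higher in both kinds of offspring, against the same 11.5% (control) and 11.4% (Cd) of all genes. It was Cdc20, an activator of the anaphase-promoting complex, with a log2 fold change of 1.27 (SE 0.19) in control offspring. Hdac3, a histone deacetylase, had 0.49 (SE 0.086) and the transcription factor Stat3 had 0.01 (SE 0.076).

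Related chaperonins were compared on the same scale. The mitochondrial chaperonin Hspd1 (Hsp60) was at 49.3 and 46.9 RPKM before and at 297.8 and 263.0 RPKM after stimulation in control offspring, a log2 fold change of 2.54 (SE 0.071). Its lid Hspe1 (Hsp10) had a log2 fold change of 1.32 (SE 0.058). Bbs12, a chaperonin-like protein that assembles the ciliary BBSome together with TRiC, had one of 1.82 (SE 0.13), and its partner Mkks one of -0.17 (SE 0.11). Hspd1, Hspe1 and Bbs12 were the 3 of 5 tested members of this list called higher, in both kinds of offspring. Over all genes tested, 11.5% were called higher in control and 11.4% in Cd offspring. The remaining listed genes Cct6b, the testis form of the zeta subunit, and Cct8l1 were under the limit of a mean of 0.5 RPKM and were not tested. Cct6b was at 0.261 ± 0.041 RPKM in stimulated control cells (SD, n = 2), where Cct6a was at 200.5 ± 6.80 RPKM (SD, n = 2).

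The heat shock list held Hsf1, the transcription factor of the heat shock response, to which TRiC is known to bind, and 9 chaperone genes. In control offspring 3 of the 10 were called higher after stimulation and 4 lower, against 11.5% and 7.17% of all genes tested. Hsph1, a cytosolic Hsp110 that exchanges nucleotide on Hsp70, had a log2 fold change of 1.91 (SE 0.096). Hsp90ab1, the constitutive Hsp90, had one of 1.35 (SE 0.074), and Hspa4, another Hsp110, one of 1.30 (SE 0.054). The stress-inducible Hsp70 genes went down, Hspa1b from 11.4 and 11.3 RPKM to 0.206 and 0.311 RPKM and Hspa1a with a log2 fold change of -4.37. Hspa1a and Hspa1b are near-identical copies, so the split between them is uncertain. The other genes called lower were the Hsp40 cochaperones Dnaja1 with -1.18 (SE 0.12) and Dnajb1 with -1.19 (SE 0.042), and Hsf1 itself had a log2 fold change of 0.06 (SE 0.090). In Cd offspring 2 of the 10 were called higher (Hspa4 and Hsp90ab1) and the same 4 lower, against 11.4% and 7.24% of all genes tested. There Hsph1 was just under 2-fold, at a log2 fold change of 0.94 (SE 0.096).

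In unstimulated cells 2 of the 10 heat shock genes were called higher in Cd than in control offspring, against 0.135% of all genes tested. Hsph1 was at 27.5 and 28.2 RPKM in control and at 48.3 and 60.0 RPKM in Cd offspring, a log2 fold change of 0.95 (SE 0.096, limma adjusted p = 0.009657). Hsp90aa1, the inducible Hsp90, was at 115.8 and 120.3 RPKM in control and at 162.1 and 150.7 RPKM in Cd offspring, a log2 fold change of 0.40 (SE 0.058, limma adjusted p = 0.03326). Both genes were higher in both Cd libraries, the call of Hsph1 held in 16 of 18 alternatives and that of Hsp90aa1 in 9 of 18. The list's median was 0.33, against 0.04 for the TRiC subunits and 0.01 for all genes. In stimulated cells none of the 10 was called between Cd and control offspring.

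**Figure D5:**
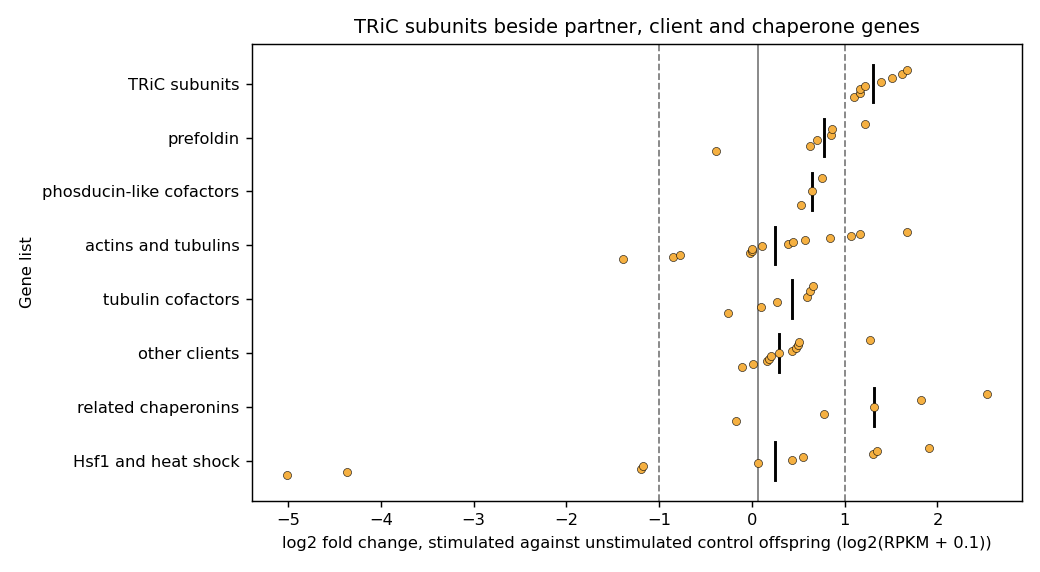
Log2 fold change of stimulated against unstimulated cells of control offspring (horizontal axis, log2(RPKM + 0.1) scale) for the tested genes of each list (vertical axis); points are genes, black bars list medians, the solid grey line the median of all genes tested and the dashed lines 2-fold either way. The TRiC subunits lie together between 1.10 and 1.68, while the heat shock genes run from -5.01 (Hspa1b) to 1.91 (Hsph1).

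The genes whose pattern over the 8 libraries was most like the mean centred profile of the subunits were found by the root mean square distance on the log2(RPKM + 0.1) scale, among 8616 genes with a mean of at least 5 RPKM. The 5 nearest were Hspa4 (0.031), the nucleolar RNA helicase Ddx21 (0.032), the translation initiation factor Eif5b (0.032), the oligosaccharyltransferase subunit Rpn1 (0.034) and the checkpoint clamp subunit Hus1 (0.037), where the median gene was at 0.625. The members themselves were at 0.033 (Cct8) to 0.142 (Cct6a), with Cct3 at 0.138. The profile is set mostly by the step between unstimulated and stimulated libraries, so many genes that change by a like amount come close to it.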

How the data were processed

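The 8 RNA-seq libraries were grouped from their labels. Per the methods of the study, the authors used subread for alignment to mm10 and featureCounts with RefSeq for counting (versions are not given in the sources used here). The table that the authors deposited holds log2 values, log2(RPKM + 1) + 0.0001 as read from the values, which were turned back into RPKM. RPKM is relative to the library, so a change in total RNA per cell is not seen. Whole reads were recovered from the RPKM steps for 17792 of 17794 genes above 0 in at least 2 libraries (tolerance 0.01 reads), 15542732 to 25486791 reads per library. Of 27179 gene identifiers, 25275 matched RefSeq of GRCm38.p6, the source of positions and promoters.

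The 12605 genes whose RPKM averaged 0.5 or more were tested with limma 3.58.1 (R 4.3.3) on log2(RPKM + 0.1), with 4 group means, 4 residual degrees of freedom, empirical Bayes with a trend, and Benjamini-Hochberg adjustment over all genes tested. A fold change on this scale understates the change of low genes. Calls needed an adjusted p below 0.01 with a change beyond 2-fold for stimulation, and an adjusted p below 0.05 otherwise. Intervals are 95% and two-sided. The fit and the read recovery were tested on simulated data. Tables and plots used Python 3.11.15, numpy 2.4.6, pandas 2.3.3 and matplotlib 3.10.9.

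The members and lists were chosen with earlier results of these data known. All 8 members are named. Of other lists, the 3 tested genes with the highest mean and the 3 with the largest change on stimulation in control offspring could be named. Tuba1b, Dnaja1, Dnajb1, Hspa4, Hsf1, Cct6b, Cct8l1, Cd4, Ms4a1, Cd8a, Ncr1, Hba-a1 and Hbb-bs were named after their values were seen. The 5 genes most like the members were chosen by distance among genes with a mean of at least 5 RPKM. As alternatives, each library was left out in turn, the pseudocount was set to 0.5 or 1, the filter was dropped or raised to 1 RPKM, the fit was limited to the groups compared, scaling was by median of ratios or quantiles, a block was added on the replicate number or the offspring, and the trend was dropped. Limma voom on the recovered reads was added after seeing the data.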

Additional observations from a re-analysis of the deposited data

Results flagged for a closer look

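Hsph1, an Hsp110 cochaperone, was the gene of the lists whose response to stimulation differed between Cd and control offspring by a test of the difference itself. The difference of the responses was -0.97 on the log2 scale (SE 0.14, limma adjusted p = 0.04623). It was called in 7 of 18 alternatives, with a value of -1.12 to -0.81 and an adjusted p of 0.001022 to 0.192 in limma. Hsph1 stood at 109.0 and 100.6 RPKM in stimulated control and at 104.8 and 102.3 RPKM in stimulated Cd offspring, which overlap. The unstimulated levels were 27.5 and 28.2 RPKM in control and 48.3 and 60.0 RPKM in Cd offspring, which do not. The cause was not tested.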

How the results depend on the processing

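No result on a TRiC subunit that was called changed direction. The 8 of 8 calls for stimulation in control offspring held under all 19 alternatives. In Cd offspring they held except for Cct4, whose log2 fold change was 0.97 with median-of-ratios scaling and without the unstimulated Cd replicate 6. The 1 call for Cd in unstimulated cells, Cct3, became 0 with no filter, with only the libraries of the comparison, with median-of-ratios scaling and with no trend (limma adjusted p of 0.07985, 0.2208, 0.0773 and 0.1467), and was 0 to 1 with a library left out, where the lone library is assumed to vary like the other groups. It held with both pseudocounts, a mean of at least 1, quantile scaling and voom. The causes were not tested. Of the other genes named, Tuba1b and Cdc20 in control offspring were called in 16 and 18 of 19 alternatives and Tubb3 in 17 of 18, and Tuba1a and Hsp90ab1 in Cd offspring in 16 and 17 of 19. The correlation of deviations across genes was -0.112 to 0.064 between groups. Between unstimulated and stimulated libraries it was 0.064 in control and 0.009 in Cd offspring. Each group gives 1 library difference, so these values cannot decide whether libraries of the same number share an animal or litter. A block on the replicate number left 0 Cd calls among the subunits in unstimulated cells (limma adjusted p of Cct3 0.08981) and changed no other call of a subunit.

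Over all genes, the 113 calls for Cd in unstimulated cells became 65 with no filter, 52 with only the libraries of the comparison, 14 with no trend, 211 with voom and 19 to 105 with a library left out. The 45 calls for the difference in response became 28 with no filter, 4 with no trend, 25 with an offspring block, 112 with voom and 2 to 63 with a library left out. The 0 calls for Cd in stimulated cells became 9 with no filter, 2 with no trend and 0 to 3 with a library left out. Quantile scaling moved the median log2 fold change of all genes for stimulation in control offspring from 0.07 to -0.03. Each TRiC value rests on at least 2150 reads, and how much of the spread between libraries is counting error was not tested.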
